A study of Homo sapiens with 6 samples.

Results

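The genes described here are CD3E, CD3D, CD3G and CD247, the kinases LCK and ZAP70, and the surface proteins CD5, CD7, CD4 and CD8A, 10 genes that mark T cells. Each was taken as its hg19 span with 5 kb added on either side, and every deposited peak that overlapped such a span by at least 1 bp was kept. CD3E, CD3D and CD3G share 1 span, so there were 8 spans of 371 kb in all. They held 59, 65 and 83 peaks in SLFN11 knockout control, 2 h and 4 h, of 271785, 221753 and 410176 deposited, and 58, 64 and 65 in parental control, 2 h and 4 h, of 174843, 180754 and 181577. H3K27ac, the acetylation of lysine 27 of histone H3 found at active promoters and enhancers, had been profiled by ChIP-seq in CCRF-CEM, a human cell line of T lymphoblasts from a leukemia. The SLFN11 knockout and the wild-type parental cells were each sampled after DMSO (control) and after 100 nM camptothecin, a topoisomerase 1 inhibitor, for 2 h and for 4 h. All 6 groups were 1 library each, so every difference below is between 2 libraries and has no replicate check and no test. The labels call the knockout an SLFN11 gene knockout and do not say whether it is 1 clone. The extract protocol speaks of 4 h of treatment alone, while the labels give 2 h and 4 h. In bulk cells, fewer marked cells and less mark per cell cannot be told apart.

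The T cell receptor reads antigen but has no signalling tail of its own. The CD3 chains (epsilon, delta and gamma, from CD3E, CD3D and CD3G, and zeta, from CD247) carry the tyrosine motifs that LCK phosphorylates and ZAP70 then binds. CD4 and CD8A bring LCK to the receptor, CD5 dampens its signal, and CD7 is an early T lineage surface protein. In T cell leukemia these genes are used to assign the lineage, and CD3 and CD7 are often present before the receptor itself reaches the surface.

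Depth differed between the libraries. The background pileup solved from each list, a measure of relative depth, was 0.699, 0.715 and 0.168 fragments per base in knockout control, 2 h and 4 h, and 0.603, 0.506 and 0.570 in parental control, 2 h and 4 h. Knockout 4 h stood apart, with a median peak width of 200 bp against 429 to 448 bp in the other 5 lists, so results are also given without it. Because the lists differ in length, each was reduced to a matched list, its 30000 peaks of smallest p on the autosomes and X. Rank 1 is the smallest p. A list rank counts all peaks of that library, and the list of knockout 4 h is the longest; some sites rank lower there by list rank than by the ranks over shared regions given further on. The fold and p of a peak are the authors' own, fold being the ratio of pileup over local background. The fold includes a pseudocount that weighs more in a shallow library, so folds describe peaks within a library and are not compared between libraries.

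Promoter sequences are shown for genes whose starts carried the strongest or the broadest sites below. RefSeq windows on GRCh38.p14 (250 bases before to 50 after a start) were at hand for 5 of the 10 genes, 11 windows in all. The peaks lie on hg19, so window and peak coordinates were not matched. Capitals mark the ETS-type motif AGGAAG, the RUNX-type motif TGTGGT and the E-box CAGCTG, each searched on both strands. Matches of the ETS-type motif overlap each other in CD3D.
LCK, first window, chr1:32251015-32251314, plus strand: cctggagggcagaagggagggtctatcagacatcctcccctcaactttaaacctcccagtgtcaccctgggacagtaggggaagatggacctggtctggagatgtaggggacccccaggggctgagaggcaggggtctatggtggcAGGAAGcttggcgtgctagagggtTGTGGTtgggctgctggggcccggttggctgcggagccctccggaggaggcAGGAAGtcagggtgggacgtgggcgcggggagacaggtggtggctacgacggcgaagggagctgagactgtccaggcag
LCK, second window, chr1:32273871-32274170, plus strand: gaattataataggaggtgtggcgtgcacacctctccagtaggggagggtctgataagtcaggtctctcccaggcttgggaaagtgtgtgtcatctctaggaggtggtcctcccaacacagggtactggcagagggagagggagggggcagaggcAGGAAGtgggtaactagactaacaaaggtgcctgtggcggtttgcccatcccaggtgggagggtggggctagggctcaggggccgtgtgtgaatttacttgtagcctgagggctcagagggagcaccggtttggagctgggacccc
CD247, chr1:167518480-167518779, minus strand: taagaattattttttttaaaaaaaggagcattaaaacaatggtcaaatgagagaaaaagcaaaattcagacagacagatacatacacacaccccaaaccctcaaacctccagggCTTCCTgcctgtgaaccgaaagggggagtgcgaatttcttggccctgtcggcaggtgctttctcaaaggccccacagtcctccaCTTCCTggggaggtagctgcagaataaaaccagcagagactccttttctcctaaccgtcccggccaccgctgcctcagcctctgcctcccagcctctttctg
CD3D, chr11:118342656-118342955, minus strand: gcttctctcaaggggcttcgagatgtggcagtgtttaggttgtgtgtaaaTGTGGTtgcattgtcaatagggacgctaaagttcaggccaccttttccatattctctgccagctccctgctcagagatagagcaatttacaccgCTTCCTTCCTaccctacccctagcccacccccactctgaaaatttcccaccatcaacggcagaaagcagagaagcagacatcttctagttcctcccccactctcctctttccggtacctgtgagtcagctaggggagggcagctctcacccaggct
ZAP70, first window, chr2:97713326-97713625, plus strand: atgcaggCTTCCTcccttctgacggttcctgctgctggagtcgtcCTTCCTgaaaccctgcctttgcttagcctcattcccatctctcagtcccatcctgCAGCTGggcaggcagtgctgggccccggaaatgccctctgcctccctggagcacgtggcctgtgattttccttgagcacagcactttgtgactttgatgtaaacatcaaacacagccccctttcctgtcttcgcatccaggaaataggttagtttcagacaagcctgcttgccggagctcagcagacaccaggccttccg
The ETS-type letters were in 6 of the 11 windows and in 33.6% of all 35116 promoter windows of the same length. All 5 genes had them in at least 1 window, but genes differ in their number of windows. The share of all genes with such a window was not computed. RUNX-type letters were in 2 of the 11, the first LCK window and CD3D, against 13.1% of all. The E-box was in 4 of the 11, all in ZAP70 or CD8A, against 17.9% of all. The GATA-type motif AGATAA was in 0 of the 11 and in 10.3% of all. These counts describe letters in the windows and no binding was measured.

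All 8 spans held matched-list peaks in all 6 libraries, though in parental 2 h those of the CD4 span touched the added 5 kb only. This does not check the T lymphoblast label, since markers of other blood cells were not analysed here. Matched peaks covered 15.3%, 16.8% and 9.33% of the spans in knockout control, 2 h and 4 h, and 15.0%, 12.7% and 14.3% in parental control, 2 h and 4 h. Over the genome, measured to the last peak of each chromosome, the same lists covered 1.21%, 1.24% and 0.872% in the knockout and 1.20%, 1.06% and 1.12% in the parental cells. The members were picked as T cell genes, so this is a description of active loci. Overlapping matched peaks of the 6 libraries were merged into 32 sites, numbered along each span from its lower coordinate. Of these, 28 touched a gene span and 4 touched the added 5 kb only. There were 16 sites with a matched peak in all 6 libraries, 4 in 5 libraries, 4 in 4 libraries and 8 in 1 library.

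**Figure D1:**
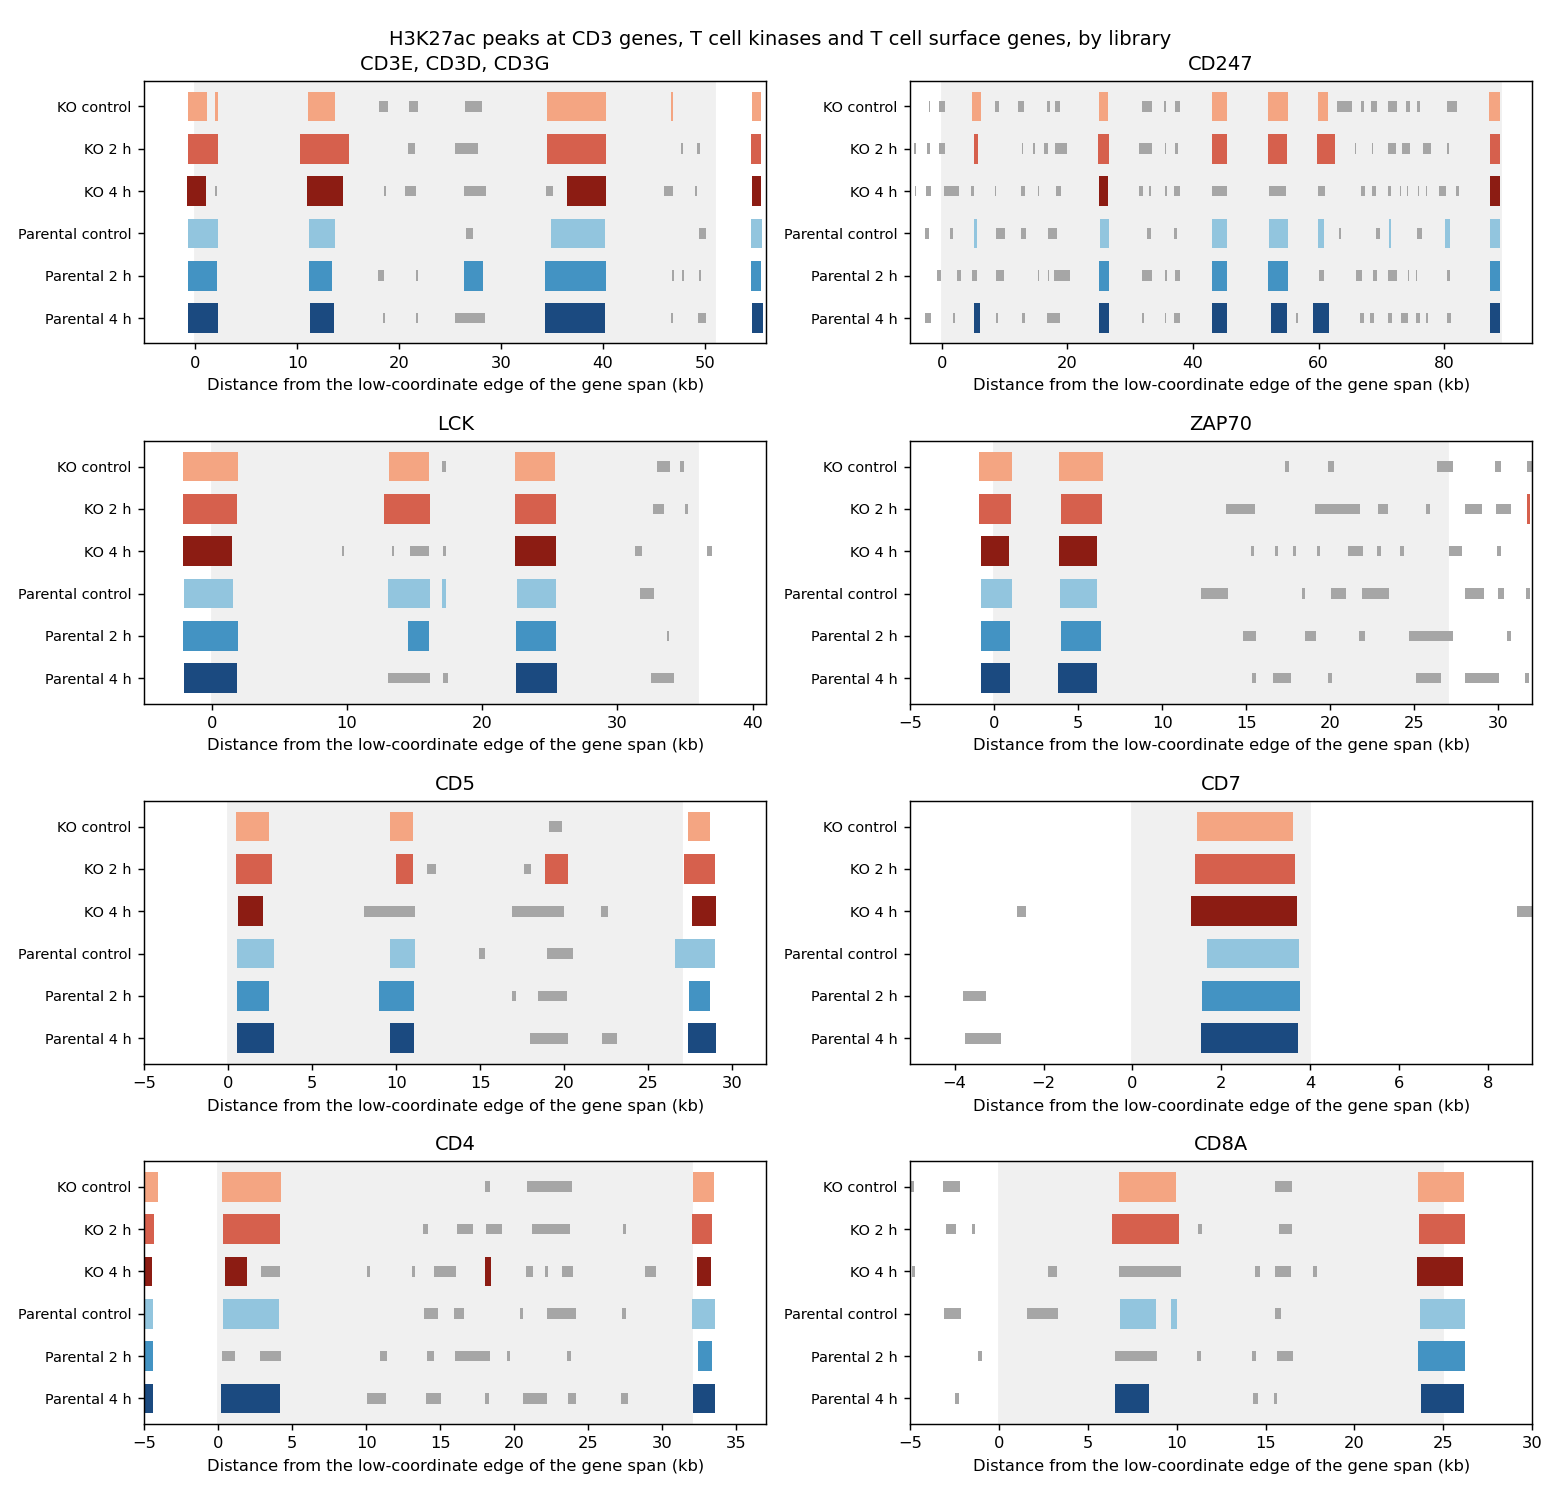
Deposited H3K27ac peaks of the 6 libraries (rows) along each of the 8 spans, by distance in kb from the lower edge of the gene span; tall coloured bars are peaks of the matched list, thin grey bars weaker deposited peaks, and the shaded area is the gene span without the added 5 kb. The same 16 sites hold tall bars in every row, and weaker sites of CD247, LCK, CD5, CD4 and CD8A drop to grey in knockout 4 h, parental 2 h or parental 4 h.

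Among the receptor chains, the CD3E, CD3D and CD3G cluster on chromosome 11 (118170001 to 118231000 with the added 5 kb) held 3 sites in its span that were matched in every library. The first, from 118174242 to 118177276, spans the lower edge of the cluster, where CD3E begins. Its fold was 5.30, 4.59 and 3.76 in knockout control, 2 h and 4 h, and 4.46, 4.12 and 4.63 in parental control, 2 h and 4 h. Its list rank was 3817, 6786 and 11227 in the knockout and 6136, 9339 and 7361 in the parental cells, so each treated library ranked it below the control of its genotype, and knockout control ranked it highest. The ranked peak was 1826, 2955 and 1801 bp wide in the knockout and 2937, 2910 and 3004 bp in the parental libraries. In knockout control and knockout 4 h it was thus called as a shorter piece, and the part of this in the ranks was not tested. Site 2, from 118185244 to 118190047, ranked between 10244 and 12007 in the 5 libraries other than knockout 4 h, and at 28573 in that library.

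Site 4 of the cluster, from 118209270 to 118215274, lies in the part that holds CD3D and CD3G, which are transcribed away from each other from neighbouring starts. It was the broadest peak of the cluster in every library, 5735, 5703 and 3796 bp wide in knockout control, 2 h and 4 h, and 5328, 5919 and 5981 bp in parental control, 2 h and 4 h. At most 0.13% of the peaks of a list were wider. Its fold was low, from 2.21 to 2.62, and its rank lay between 8169 and 12947. Site 6, from 118229557 to 118230718, was in the added 5 kb only, next to UBE4A, the neighbouring gene in the RefSeq gene table (GRCh38.p14), and it may not belong to the CD3 genes. Its fold was 5.92, 5.94 and 3.34 in knockout control, 2 h and 4 h, and 5.56, 5.95 and 5.65 in parental control, 2 h and 4 h.

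CD247, which encodes the zeta chain, spans 99 kb with the added 5 kb on chromosome 1 (167394001 to 167493000) and held 8 sites, the most of any span. The strongest was at its upper end, from 167486188 to 167487919, where this gene, read towards lower coordinates, begins. It was also the strongest site of all 8 spans by median rank. Its fold was 5.04, 5.46 and 4.47 in knockout control, 2 h and 4 h, with list ranks of 2573, 2534 and 5385. In parental control, 2 h and 4 h the fold was 5.41, 5.06 and 5.16 and the rank 1616, 3834 and 3767. Parental control ranked it highest and knockout 4 h lowest.

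Inside CD247, site 2 (167423938 to 167425628) was steady, with ranks between 5447 and 7445 over all 6 libraries. Site 3, from 167441991 to 167444382, was less so. Its rank was 11996, 11204 and 46560 in knockout control, 2 h and 4 h, and 11490, 16148 and 11810 in parental control, 2 h and 4 h. Its width was between 2286 and 2364 bp in the 6 libraries. Sites 1, 4 and 5 ranked between 15284 and 29547 where they were matched, and none of the 3 was matched in knockout 4 h. Sites 1 and 5 were also unmatched in parental 2 h. Matched cover of the CD247 span was 11878, 12018 and 2911 bp in knockout control, 2 h and 4 h, and 10989, 8721 and 11485 bp in parental control, 2 h and 4 h.

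LCK, the kinase that starts the signal, is known to have 2 promoters, a proximal one used in immature thymocytes and a distal one used in mature T cells. Its span on chromosome 1 (32711001 to 32757000 with the added 5 kb) held 2 sites that were strong in every library. The first site, from 32713833 to 32717937, covers the lower edge of the span, where the longest LCK transcripts begin, and reaches towards FAM167B, the gene before LCK. Its rank was 5806, 6457 and 4543 in knockout control, 2 h and 4 h, and 5450, 5602 and 5179 in parental control, 2 h and 4 h. Site 4, from 32738434 to 32741506, had a rank of 4244, 4487 and 2798 in the knockout and 4071, 3786 and 4706 in the parental libraries. The genotypes overlapped at both sites, and knockout 4 h ranked both strongest. The midpoints of these 2 sites are 24085 bp apart, and the 2 LCK windows printed above start 22856 bp apart on GRCh38.p14 and were not placed on hg19. Between them, site 2 (32728715 to 32732159) was weaker, and its rank was 22658, 27751 and 48440 in knockout control, 2 h and 4 h, and 22922, 27384 and 46840 in parental control, 2 h and 4 h. At 4 h it was outside the matched list in both genotypes.

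ZAP70, the kinase recruited to the phosphorylated CD3 chains, held its marked chromatin at the start of the gene on chromosome 2. The first site (98329075 to 98331053) had a rank of 6925, 7240 and 5670 in knockout control, 2 h and 4 h, and 5782, 6424 and 5947 in parental control, 2 h and 4 h. The second, centred 5073 bp further on (98333813 to 98336461), had a rank of 7463, 8712 and 9863 in the knockout and 7698, 9099 and 10824 in the parental libraries. The genotypes overlapped at both sites, and parental 4 h ranked the second one lowest. The matched cover of ZAP70 differed little, at 4552, 4602 and 3948 bp in knockout control, 2 h and 4 h, and 4068, 4118 and 4017 bp in parental control, 2 h and 4 h. Site 3, in the added 5 kb, was matched in knockout 2 h only, with a 200 bp peak at rank 28749.

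**Figure D2:**
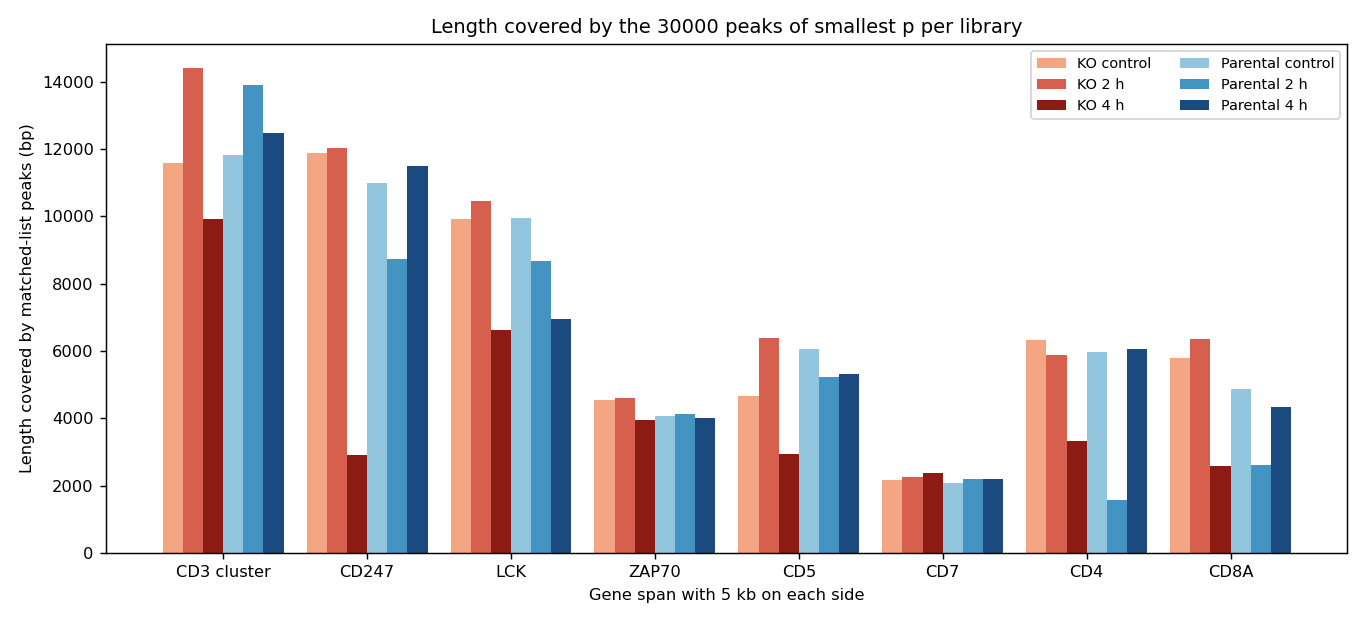
Length in bp covered by matched-list peaks in each span with its added 5 kb, 1 bar per library. ZAP70 and CD7 differ little between libraries, and the lowest bar of CD247 is knockout 4 h with 2911 bp and that of CD4 is parental 2 h with 1557 bp.

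CD5, which restrains receptor signalling, was marked at its start on chromosome 11. Its first site, from 60869470 to 60871711, had a fold of 4.27, 4.13 and 4.40 in knockout control, 2 h and 4 h, and 4.23, 4.37 and 3.96 in parental control, 2 h and 4 h. Its rank was 3010, 3960 and 4734 in the knockout and 3158, 4768 and 5378 in the parental libraries. The genotypes overlapped, with knockout control highest and parental 4 h lowest. A second site inside the gene (60877983 to 60880112) ranked between 15590 and 22121 in 5 libraries and at 372953 in knockout 4 h. Site 4, from 60895562 to 60898033, lies at the upper edge of the span towards VPS37C, the next gene. Only in parental control did its peak reach into the gene span. Elsewhere it lay in the added 5 kb, and it may not belong to CD5. Site 4 had a rank of 14930, 19575 and 27613 in the knockout and 14250, 16725 and 17886 in the parental libraries. Over the shared regions its rank was 14889, 16917 and 14310 in the knockout and 14214, 15733 and 16306 in the parental libraries, so knockout 4 h was lowest by list rank and not over shared regions.

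CD7, the smallest span, held a single matched site in every library, from 80273332 to 80275771 on chromosome 17, covering most of the gene. Its fold was 3.32, 3.39 and 2.96 in knockout control, 2 h and 4 h, and 3.56, 3.44 and 3.57 in parental control, 2 h and 4 h. Its list rank was 13419, 14036 and 27262 in the knockout and 10603, 11234 and 9838 in the parental libraries. All 3 knockout libraries ranked it below all 3 parental ones, and 18.5% of the shared regions below did not overlap between genotypes either. The widths were alike, 2162, 2260 and 2376 bp in the knockout and 2070, 2199 and 2199 bp in the parental libraries.

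Among the coreceptors, CD4 on chromosome 12 held its gene-start site from 6898185 to 6902213. The strongest peak there had a rank of 16249, 15221 and 10287 in knockout control, 2 h and 4 h, and 23134, 33675 and 19574 in parental control, 2 h and 4 h. All 3 knockout libraries ranked it above all 3 parental ones by list rank, with knockout 4 h highest and parental 2 h lowest. The site is not among the shared regions, 18.5% of which did not overlap between genotypes in either direction. No such share was computed for list ranks. The peak was 3931, 3876 and 1480 bp wide in the knockout and 3810, 1395 and 3985 bp in the parental libraries, so in knockout 4 h and parental 2 h it was called as a shorter piece. In every library the strongest peak of the CD4 span was outside the gene, at site 1 (6890819 to 6893911) on the LAG3 side. The added 5 kb begins at 6893001, so most of this site lies beyond it. Its rank was 8156, 8993 and 7308 in the knockout and 8419, 9499 and 10033 in the parental libraries. Site 4 (6930019 to 6931564), on the GPR162 side, had ranks between 11514 and 25459. Both may belong to those neighbours.

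CD8A on chromosome 2 was marked at its upper end, where it begins, in every library. That site (87034528 to 87037211) had a fold of 3.45, 3.39 and 3.20 in knockout control, 2 h and 4 h, and 3.60, 3.37 and 3.54 in parental control, 2 h and 4 h. Its rank was 9405, 9334 and 16143 in the knockout and 10582, 12298 and 11988 in the parental libraries. Over the shared regions the ranks were 9392, 9322 and 11375 in the knockout and 10571, 12244 and 11963 in the parental libraries, and there parental 2 h was lowest. The site inside the gene, from 87017328 to 87021113, had a rank of 19026, 19292 and 83988 in the knockout and 22119, 33729 and 25698 in the parental libraries. It left the matched list in knockout 4 h and in parental 2 h, the libraries with the lowest background pileup.

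The 24 sites matched in at least 4 libraries were missing from the matched list 7 times in knockout 4 h, 4 times in parental 2 h, 1 time in parental 4 h and 0 times in the other 3 libraries. A weaker deposited peak stood at each of these places. The order follows the background pileup of 0.168, 0.506 and 0.570 fragments per base, and the part of depth in these gaps was not tested.

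The design sets camptothecin against DMSO within each genotype, and knockout against parental cells at each time. To rank the same places everywhere, the 15000 strongest peaks of each library except knockout 4 h were merged into 18835 regions, and each region took the rank of its smallest p among these regions in a library. Of these, 17 fell on the members, 14 touching gene spans and 3 touching the added 5 kb only. A region was called when its rank differed by over 3000 places between 2 libraries. Ranks below are of this kind. The 2 h and 4 h comparisons of a genotype share its control library.

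In knockout cells, 0 of the 17 member regions were called at 2 h against control, where 9.19% of all regions were (4.50% stronger and 4.68% weaker). At 4 h, 4 of 17 were called, all weaker, against 31.3% of all regions, 15.2% stronger and 16.1% weaker. The CD3E start had a rank of 9227 at 4 h and 3817 in control. CD3 cluster site 2 had 14512 at 4 h and 10388 in control, and the cluster site beside UBE4A had 12695 at 4 h and 9327 in control. CD247 site 3 had 15535 at 4 h and 11972 in control. The median rank difference of the 17 from control was 649 places at 2 h and 1048 at 4 h (positive is weaker in the treated library), and over all regions it was -17 and 248.

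In parental cells, 2 of 17 were called at 2 h, both weaker, against 16.9% of all regions, 8.79% stronger and 8.10% weaker. They were the CD3E start, with 9322 at 2 h and 6135 in control, and CD247 site 3, with 15485 at 2 h and 11473 in control. At 4 h both were within 3000 places of control again, at 7356 and 11785. The 1 member called at 4 h was ZAP70 site 2, weaker with 10804 at 4 h and 7693 in control, against 14.6% of all regions, 7.13% stronger and 7.45% weaker. The median difference of the 17 was 1068 places at 2 h and 816 at 4 h, against 19 and -15 over all regions. At both times 13 of the 17 ranked weaker than in control, where 50.7% of all regions did at 2 h and 49.2% at 4 h. In the knockout these were 12 and 11 of the 17, against 49.3% and 54.8%. By p and at this gap, no member was called stronger after treatment in either genotype. Ranked by fold instead, 7 of 17 were called stronger and 1 weaker in knockout 4 h over control, so the direction there turned with the measure. Of all regions 49.7% were called, 26.8% stronger and 22.9% weaker. Parental cells had 0 members called by fold at either time, against 22.9% of all regions at 2 h and 19.6% at 4 h.

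Between genotypes, 0 of 17 were called in knockout control over parental control, against 15.0% of all regions (7.63% stronger and 7.35% weaker). The median rank difference of the 17 was 174, -380 and -435 places in control, at 2 h and at 4 h (positive is weaker in the knockout). Over all regions it was 24, 31 and 211. At 2 h, 1 of 17 was called against 20.0% of all regions (10.0% stronger and 10.1% weaker): CD247 site 3 was stronger in knockout 2 h, with 11168 against 15485 in parental 2 h. At 4 h, 4 of 17 were called against 34.3% (16.3% stronger and 17.9% weaker). The upstream CD4 site, which only reaches into the added 5 kb, was stronger in knockout 4 h, with 6822 against 10017 in parental 4 h. CD7 (14248 against 9824), CD3 cluster site 2 (14512 against 10793) and CD247 site 3 (15535 against 11785) were weaker. Ranked by fold, 4 were stronger and 1 weaker in knockout 4 h over parental 4 h, against 48.2% of all regions called, 25.5% stronger and 22.7% weaker. Knockout 4 h, the shallow library, was in 8 of the 12 calls over the 7 comparisons. Its comparisons with its control and with parental 4 h also called the largest shares of all regions, 31.3% and 34.3%. The remaining comparisons called 9.19% to 20.0% of all regions.

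No member region separated the 3 knockout from the 3 parental libraries by over 3000 places, where 1.16% of all regions did, nor knockout control and 2 h from the 3 parental libraries, where 2.31% did. The CD4 start, whose list ranks were all stronger in the knockout, is not among these regions. CD7 came closest, with ranks of 13388, 13976 and 14248 in knockout control, 2 h and 4 h, and 10592, 11199 and 9824 in parental control, 2 h and 4 h. It was the only one of the 17 whose ranks did not overlap between genotypes, as in 18.5% of all regions, 9.89% being weaker in the knockout. At a gap over 2000 places it was called weaker in the knockout, where 2.52% of all regions were called and 1.05% were weaker. Between the nearest libraries, knockout control and parental 2 h, the gap (parental minus knockout) was -2189 places. No member set the treated parental libraries apart from the other 3 libraries without knockout 4 h, where 0.855% of all regions did. Over the 5 libraries without knockout 4 h, the rank of a region moved over a median range of 2217 places for the members and 3014 for all regions. The members were stronger than the average region, with a median rank of 8697 against 9672.

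**Figure D3:**
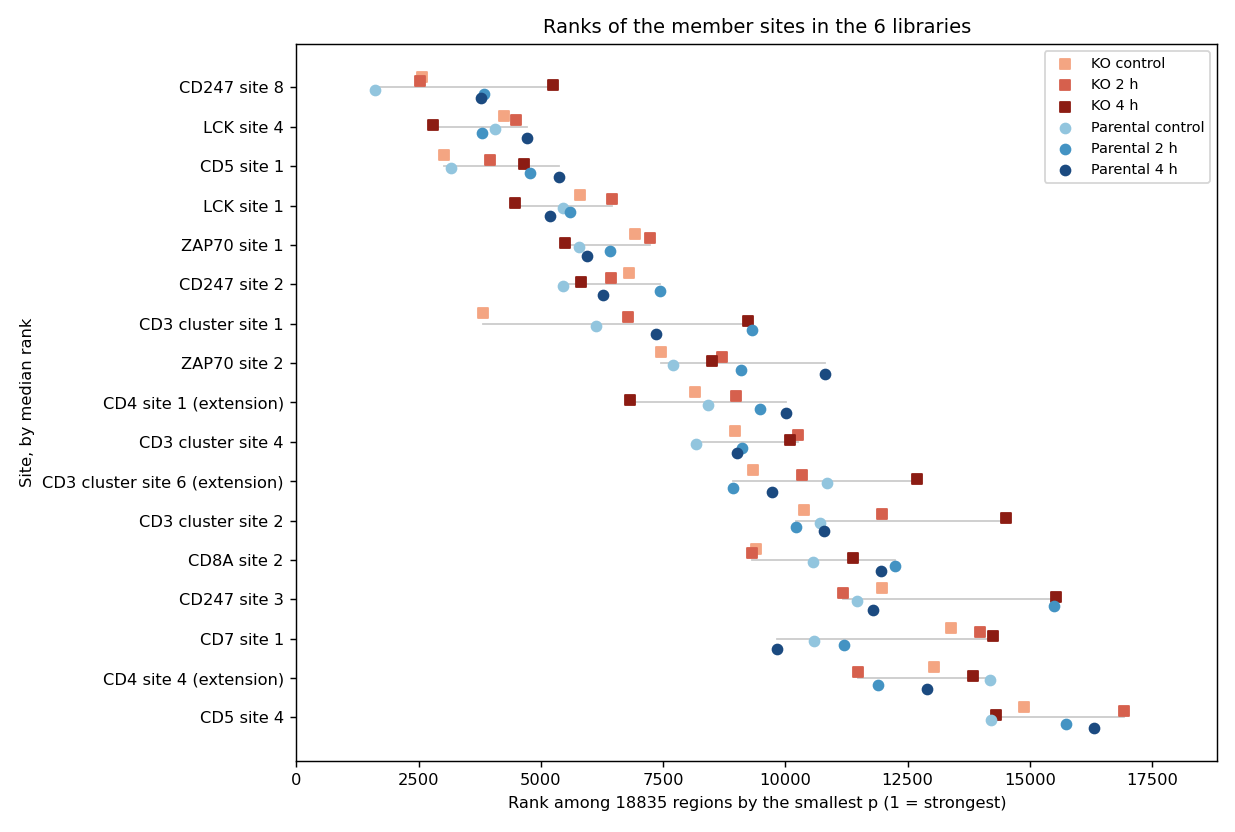
Rank of the 17 member regions among 18835 regions by the smallest p (1 is strongest), 1 symbol per library, squares for knockout and circles for parental cells, with regions ordered by median rank. The upper-end CD247 site, LCK site 4 and CD5 site 1 lead, CD3 cluster site 1, the CD3E start, has the widest range, 5505 places, and CD7 is the row with all squares to the right of all circles.

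By median rank the order of the strongest sites was the CD247 start (3170), the inner LCK site (4157), the CD5 start (4307), the LCK start (5524) and the ZAP70 start (6183). Their ranges over the libraries overlapped between neighbours. Within every library the LCK start ranked above the ZAP70 start, while the order of the other neighbours changed between libraries. The CD8A start (10973) and CD7 (12294) were the weakest gene-start sites of the 17. The CD4 start is not among the 17 and was weaker by median list rank, at 17911.5. Knockout 4 h was the exception, with a list rank of 10287 for the CD4 start, 16143 for the CD8A start and 27262 for CD7. By list rank the CD8A start had a median of 11285 and CD7 of 12326.5.

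Sites of like rank differed in how the rank was reached. The fold of each of the 16 sites matched in all libraries was set beside the 1001 peaks nearest to it in rank in the same list. In 5 sites the fold was within the lowest 5% in all 6 libraries: both strong LCK sites, both ZAP70 sites and the CD3D and CD3G site. For the ZAP70 start the fold was 2.28, 2.29 and 2.73 in knockout control, 2 h and 4 h, where peaks of like rank had a median of 5.09, 5.11 and 4.92. In parental control, 2 h and 4 h it was 2.38, 2.57 and 2.61, against medians of 5.20, 5.42 and 5.43. The LCK start had 2.46, 2.43 and 2.99 in the knockout, against medians of 5.36, 5.23 and 5.04, and 2.58, 2.73 and 2.72 in the parental libraries, against 5.38, 5.48 and 5.48. The CD247 start was nearer to its peers, with 25.2% to 40.9% of the peaks of like rank below it. In 1 site, the one beside UBE4A, the fold was above the median in all 6 libraries. In knockout 4 h alone, 4 other sites were above it, CD7 with 82.1% of like-ranked peaks below, CD3 cluster site 2 with 75.6%, CD5 site 4 with 95.9% and CD4 site 4 with 96.9%. Whether the low depth of that library sets these values was not tested.

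**Figure D4:**
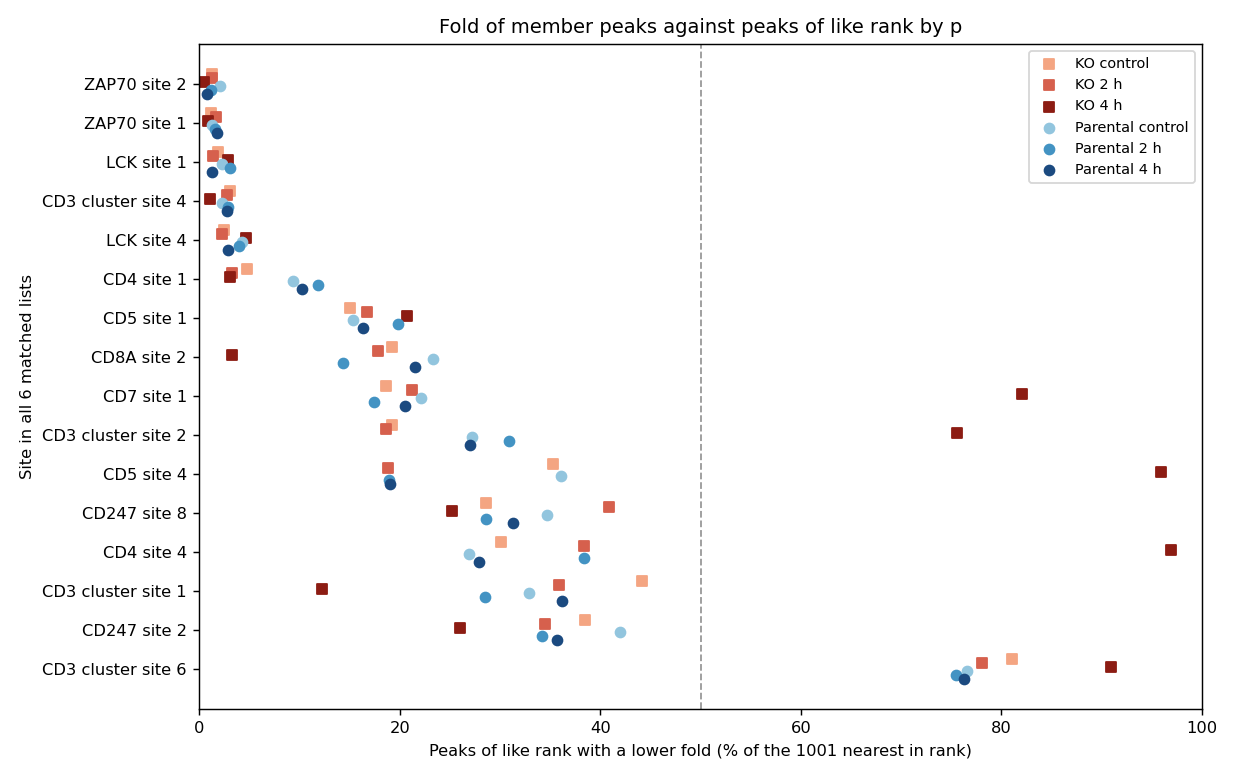
Share of the 1001 peaks nearest in rank whose fold is lower than that of the member peak (percent), for the 16 sites matched in all 6 libraries, 1 symbol per library, squares for knockout and circles for parental cells; the dashed line is 50%. Both ZAP70 sites, LCK sites 1 and 4 and CD3 cluster site 4 stay below 5% in every library.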

How the data were processed

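Per the labels, H3K27ac was immunoprecipitated from CCRF-CEM cells, with 1 library in each of 6 groups. Tools listed in the submitters' processing notes are MACS2 2.1.2 with BWA 0.7.17, Picard 2.9.2, SAMtools 1.8, Trimmomatic 0.39 and Trim Galore 0.6.2, on the build hg19; their settings and the control are not stated there. Broad peaks were deposited for each library on its own, not pooled. The fold is the ratio of pileup over local background as deposited, and −log10 p and −log10 q are the authors' deposited values, each relative to its own library. The deposited score equals 10 times that −log10 q, to within 1, and was not used.

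Peaks were intersected with the hg19 spans in Python 3.11.15 (pandas 2.3.3, scipy 1.17.1). Background pileup was solved from the commonest combination of fold and p in a list, with the pseudocount of 1 that MACS2 adds, and read depth itself is unknown. The region ranks were tested on simulated data. With 1 library per group no p-value was computed. Alternatives were the number of peaks, a q minimum, the extension, the rank gap, ranks by fold and the set of regions. The text names the peak of smallest p and the widest peak of each span, and each region called; other sites were chosen after their values were seen. Members, spans and lists were chosen with earlier results of these data known. No hg19 annotation was used, so other receptor signalling genes and markers of other blood cells were not analysed. Gene directions are background knowledge, and neighbours come from the RefSeq gene table.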

Additional observations from a re-analysis of the deposited data

How the results depend on the processing

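The cover of the 8 spans depended on the peaks taken. With 30000 peaks it was 56841, 62373 and 34625 bp in knockout control, 2 h and 4 h, and 55769, 47016 and 52854 bp in parental control, 2 h and 4 h. It was 38679, 40289 and 22563 bp in knockout control, 2 h and 4 h, and 39125, 34837 and 37825 bp in parental control, 2 h and 4 h with 15000 peaks. With 50000 peaks it came to 61762, 66331 and 39502 bp in knockout control, 2 h and 4 h, and 56500, 55364 and 58176 bp in parental control, 2 h and 4 h. A −log10 q of at least 5 left 37321, 41037 and 9682 bp in knockout control, 2 h and 4 h, and 35202, 34837 and 36362 bp in parental control, 2 h and 4 h. All deposited peaks gave 84769, 94220 and 82001 bp in knockout control, 2 h and 4 h, and 80767, 79212 and 88115 bp in parental control, 2 h and 4 h. There knockout 4 h was no longer the lowest library, and it lay above parental control and parental 2 h. Without the added 5 kb the 30000 peaks gave 47261, 52376 and 26049 bp in knockout control, 2 h and 4 h, and 45862, 38412 and 43292 bp in parental control, 2 h and 4 h, and with 10 kb added 64772, 71638 and 41067 bp in knockout control, 2 h and 4 h, and 62338, 53478 and 60490 bp in parental control, 2 h and 4 h.

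The counts of member regions called, in the order knockout 2 h, knockout 4 h, parental 2 h and parental 4 h over their controls, and knockout over parental in control, at 2 h and at 4 h, were 0, 4, 2 and 1 after treatment and 0, 1 and 4 between genotypes. They became 2, 5, 4 and 4 after treatment and 2, 4 and 6 between genotypes at a gap over 2000 places, where 19.9%, 46.2%, 29.9% and 28.1% after treatment and 27.2%, 33.2% and 49.0% between genotypes of all regions were called. At over 5000 they were 0, 1, 0 and 0 after treatment and 0, 0 and 0 between genotypes, of all regions 1.48%, 14.4%, 4.29% and 3.05% after treatment and 3.84%, 6.23% and 15.7% between genotypes. The 1 member stronger after treatment at a gap over 2000 was in parental 2 h. Ranked by fold they were 1, 8, 0 and 0 after treatment and 1, 1 and 5 between genotypes, of all regions 16.0%, 49.7%, 22.9% and 19.6% after treatment and 19.5%, 25.4% and 48.2% between genotypes. By fold, knockout 4 h had 7 stronger and 1 weaker over its control, and 4 stronger and 1 weaker over parental 4 h, the opposite balance to ranks by p. With regions from all 6 libraries, 18 on the members, they were 0, 10, 2 and 1 after treatment and 0, 2 and 9 between genotypes. Of all regions 11.3%, 58.7%, 20.0% and 17.2% were called after treatment and 16.9%, 22.5% and 58.2% between genotypes. With regions from 30000 peaks, 31 on the members, they were 11, 20, 14 and 12 after treatment and 9, 11 and 20 between genotypes, where 53.7% to 71.3% of all regions were called. At a gap over 2000 places, 1 member separated the 3 knockout from the 3 parental libraries, and it was weaker in the knockout. The separation of knockout control and 2 h from the 3 parental libraries also had 1 member there, weaker in the knockout. With regions from 30000 peaks, each of these separations had 1 member stronger in the knockout, the opposite direction. The separation of treated parental libraries had 1 member with regions from 30000 peaks, weaker in the treated parental libraries. The cause was not tested; a smaller gap and a longer set of regions call more by construction. Removing the pseudocount of MACS2 raises every fold above 1 by construction, so the higher values it gave are not a result about these peaks. It used 1 background per library, where the deposited fold is over local background. No paired analysis was possible because each group has 1 library. Depth limits most in knockout 4 h, where weak sites could be missed.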
